A study of Mus musculus with 3 samples.

Results

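Long noncoding RNAs of 2 kinds were followed in mouse embryonic stem (ES) cells with and without shRNA against NUP153, a nucleoporin of the nuclear basket of the pore. The nuclear-retained RNAs were Malat1 and Neat1. The small nucleolar RNA (snoRNA) host RNAs were Gas5, Snhg1, Snhg3, Snhg8 and Snhg12. They were chosen by symbol, which gave 7 of the 24421 genes in the deposited counts, and all 7 passed a minimum mean of 10 reads. RNA-Seq was performed on total RNA depleted of ribosomal RNA in 3 libraries, 1 each for control, NUP153 KD-1 and NUP153 KD-2. All were undifferentiated cells of the female EL 16.7 line, with the background F2:129S1/CastEiJx 129S1, grown with LIF and serum on γ-irradiated fibroblast feeders from Tg(DR4)1Jae/J mice. Control cells are labelled wild type and received scramble shRNA lentivirus, KD-1 and KD-2 cells received lentivirus for either of the NUP153 shRNAs, and all were selected with 2 μg/ml puromycin for 2 days. Below, values in the libraries stand in the order control, KD-1, KD-2, and a pair of log2 fold changes stands in the order KD-1, KD-2, each against control.

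Malat1 is concentrated in nuclear speckles, the compartments that store splicing factors. Neat1 is the architectural RNA of paraspeckles, nuclear bodies built around its long isoform. snoRNA host RNAs are spliced transcripts whose introns carry snoRNAs. The snoRNAs guide modification or cleavage of ribosomal RNA, while the spliced exons reach the cytoplasm and, for Gas5 and several Snhg RNAs, are degraded by nonsense-mediated decay during translation. Some hosts, Gas5 among them, start with a run of pyrimidines (5′ TOP), as mRNAs of ribosomal proteins do.

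The start sites are shown first, since pyrimidine runs at the start are described for some host genes. RefSeq windows (GRCm38.p6) of 70 bases, 50 before the start site and 20 from it on, are printed on the strand of the gene. Capitals mark TATAA (or TTATA, the same letters on the other strand) between 40 and 20 bases before the start, and a run of at least 5 pyrimidines that begins with C within 5 bases of the start. Gas5 lies on the plus strand of chromosome 1, Snhg12 on the plus strand and Snhg3 on the minus strand of chromosome 4, Snhg8 on the minus strand of chromosome 3, and Snhg1 (plus) and Malat1 (minus) on chromosome 19.
Gas5 at chr1:161035116-161035185: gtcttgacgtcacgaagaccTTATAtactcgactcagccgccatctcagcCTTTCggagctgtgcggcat
Snhg12 at chr4:132308628-132308697: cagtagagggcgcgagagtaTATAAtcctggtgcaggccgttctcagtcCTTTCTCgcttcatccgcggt
Snhg8 at chr3:123508317-123508386: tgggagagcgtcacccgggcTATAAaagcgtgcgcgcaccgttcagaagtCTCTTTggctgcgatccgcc
Snhg3 at chr4:132353667-132353736: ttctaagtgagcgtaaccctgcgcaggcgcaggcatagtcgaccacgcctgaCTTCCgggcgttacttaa
Snhg1 at chr19:8723437-8723506: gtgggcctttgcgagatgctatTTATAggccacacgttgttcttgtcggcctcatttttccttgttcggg
Malat1 at chr19:5802653-5802722: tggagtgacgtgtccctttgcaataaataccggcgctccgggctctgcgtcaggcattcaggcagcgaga

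The pyrimidine run was present in Gas5, Snhg12, Snhg8 and Snhg3. TATAA was present in Snhg12 and Snhg8 and TTATA in Gas5 and Snhg1, and either is counted as TATAA in the shares below. Gas5 has another RefSeq start at 161034601, whose window holds no such run and no TATAA in either form, and the same holds for the Malat1 window. Of all 32851 promoter windows in the RefSeq table, 18.4% hold the pyrimidine run, 4.09% hold TATAA and 0.849% hold both. Counted by gene with any window, as for Gas5 here, the shares of 27025 genes are 21.2%, 4.87% and 1.18%. The run was present in 4 of 14 other noncoding snoRNA hosts (28.6%) and 5 of 27 protein-coding hosts (18.5%), and TATAA in 1 of 14 and 0 of 27. CACGTG, the E-box bound by MYC proteins and read the same on both strands, is in 7.15% of all 300 base windows and in none of these. These letters were searched after the windows had been seen, and a match describes the annotated start only. Neat1 had no entry in the promoter table.

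Reads on genes numbered between 69839336 (KD-2) and 85258834 (KD-1). Nup153 had 27870, 16451 and 11126 reads, with log2 fold changes of -0.99 and -1.43. Log2 fold changes come from reads scaled by the upper quartile of each library, except where library totals, DESeq2's size factors or the edgeR test with TMM factors are named. With 1 library for each condition no spread between replicates could be measured. Intervals are exact Clopper-Pearson 95% intervals of the ratio of 2 counts and cover the counting of reads only. A gene was counted as higher or lower when its fold change exceeded 1.5. Pou5f1, which defines pluripotent cells, had 35405, 45092 and 32962 reads.

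The libraries also differed in feeder-type RNA. All 20 fibroblast markers had reads in every library, so that 0 of 20 were listed at 0, and their summed scaled reads were 383696, 260704 and 661800. Their median log2 fold changes were -0.63 and 0.80. Col3a1, a fibrillar collagen, was at -1.33 and 0.96, and Vim, an intermediate filament protein, at -0.57 and 0.97. The 16 pluripotency markers had medians of 0.20 and -0.25, and the latter became -0.09 with library totals. In KD-2 these markers were split, 6 above 0 and 10 below 0, from -0.70 to 1.17. By more than 1.5-fold 1 was higher and 2 were lower there, against 17.1% and 10.2% of all genes. In such mixed RNA, fewer cells of a type and less RNA per cell cannot be told apart.

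Malat1 was the most abundant of the 7 RNAs per length. Its levels were 1056, 1205 and 1453 RPKM, which is reads scaled by exon length and by all reads on genes. It took 0.737%, 0.841% and 1.01% of all reads on genes. Gas5 followed with 706, 666 and 434 RPKM. Snhg1 was at 304, 309 and 213 RPKM, and Snhg3 at 144, 114 and 83.5 RPKM. Snhg8 had 111, 99.1 and 78.6 RPKM, and Snhg12 had 84.97, 73.0 and 52.2 RPKM. Neat1 was lowest, with 7.74, 11.4 and 15.03 RPKM.

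This order of levels was the same in all 3 libraries, and in control and KD-1 no counting interval overlapped that of its neighbour in the order. In KD-2 the intervals of Snhg3 (Poisson interval 80.7 to 86.4 RPKM) and Snhg8 (76.0 to 81.4 RPKM) overlapped. Among 16047 genes with a known length and a mean of 10 reads or more, the control level of Malat1 ranked 74, that of Gas5 107 and that of Neat1 5645. Lengths were those of exons in the basic GENCODE M21 transcripts. With exons of all annotated transcripts, a choice made after seeing the data, Gas5 in control came to 160 RPKM and Snhg1 to 88.5 RPKM. The order in control stayed the same under those lengths, while Snhg8 stood above Snhg3 in both knockdown libraries (70.2 against 67.4 RPKM in KD-1). The Neat1 length of 20771 bases is that of the whole locus, so reads of a shorter isoform are spread over all of it in this value.

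**Figure D1:**
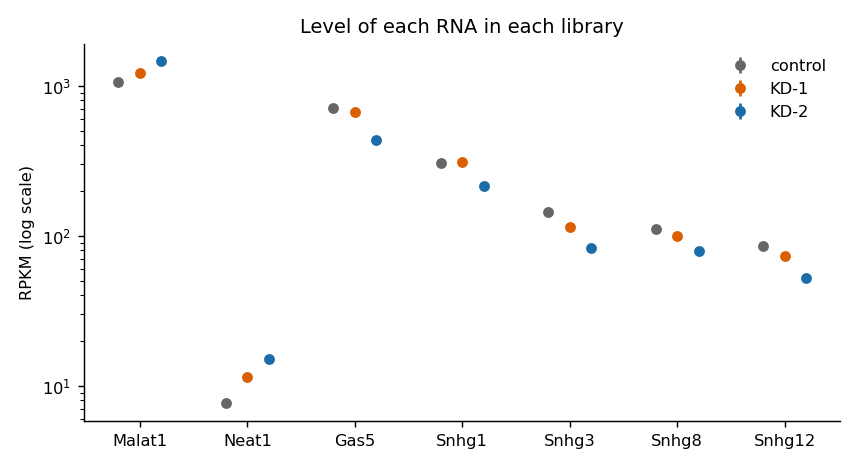
Level of each of the 7 RNAs in RPKM (log axis) in the control, KD-1 and KD-2 libraries, with exact Poisson 95% intervals of the count, which are mostly smaller than the points. Malat1 and Neat1 are lowest in control and highest in KD-2, from 7.74 to 15.03 RPKM for Neat1, while the snoRNA hosts are lowest in KD-2.

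The knockdown libraries differed in these RNAs. All 5 snoRNA host RNAs were lower than control by more than 1.5-fold in KD-2, where Neat1 was higher by more than 1.5-fold and Malat1 by less than that. None of the 7 exceeded 1.5-fold in KD-1, and Neat1 came closest. Among all 16670 genes that passed the minimum, 10.2% were lower and 17.1% higher in KD-2 by this criterion (27.3% in either direction), and 5.62% were lower and 8.63% higher in KD-1 (14.2%). The share beyond 1.5-fold in both knockdown libraries was 3.64% for higher and 0.990% for lower, and held none of the 7. The median log2 fold change of all genes was 0.02 for KD-1, with quartiles of -0.15 and 0.24, and -0.02 for KD-2, with quartiles of -0.35 and 0.40.

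Neat1, on chromosome 19 from 5824708 to 5845478 (GRCm38, minus strand), had 11629, 20167 and 21800 reads. Scaled reads were 12566, 18600 and 21874, so that control was lowest and both knockdown libraries were above it. The log2 fold change was 0.57 for KD-1 (interval 0.53 to 0.60), a fold of 1.48, just inside the criterion. For KD-2 it was 0.80 (interval 0.77 to 0.83), a fold of 1.74. Over the 4 ways of scaling compared, it lay between 0.50 and 0.57 for KD-1 and between 0.80 and 0.96 for KD-2. Fibroblast markers moved the same way as Neat1 in KD-2 and the opposite way in KD-1, and their part in the Neat1 values was not tested. Of 12 differentiation markers, 10 passed the minimum, with medians of 0.34 and 0.45, and 4 were higher in KD-1 and 5 in KD-2 by more than 1.5-fold, with 0 lower in either, against 8.63% and 17.1% of all genes higher. Their summed scaled reads were 6471, 8306 and 5303 with 0 of 12 listed at 0, and their part in the Neat1 values was not tested either.

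Malat1, on chromosome 19 from 5795690 to 5802672 (minus strand), had 533456, 717440 and 708738 reads. Its scaled reads of 576457, 661686 and 711134 rank the libraries as those of Neat1 do. The log2 fold change was 0.20 for KD-1 (interval 0.19 to 0.20) and 0.30 for KD-2 (interval 0.30 to 0.31), folds of 1.15 and 1.23. Scaling moved these values to between 0.13 and 0.20 and between 0.30 and 0.46, wider than the counting intervals. Compared directly, the log2 ratio of KD-1 to KD-2 was -0.10 for Malat1 and -0.23 for Neat1, and with library totals -0.27 and -0.40.

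Gas5, whose exons act in growth arrest and bind the glucocorticoid receptor, is the most abundant of the hosts and lies on chromosome 1 from 161034422 to 161038539. It had 43448, 48299 and 25767 reads. Scaled reads were 46950, 44546 and 25854, so control and KD-1 were close and KD-2 was below both. The log2 fold change was -0.08 for KD-1 (interval -0.09 to -0.06) and -0.86 for KD-2 (interval -0.88 to -0.84). KD-1 was higher than KD-2 by 0.78, a fold of 1.72.

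Snhg1, on chromosome 19 from 8723475 to 8726443, is the host of Snord22 and other box C/D snoRNAs. It had 19000, 22779 and 12882 reads. Its log2 fold change was 0.03 for KD-1 (interval 0.01 to 0.06), which became -0.03 with DESeq2's size factors, and -0.67 for KD-2 (interval -0.70 to -0.64). As with Gas5, control and KD-1 stood together and KD-2 stood apart.

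Snhg3, the host of the U17 snoRNAs, which serve the cleavage of ribosomal RNA precursors, was the host farthest from control. It had 6073, 5665 and 3388 reads. The log2 fold change was -0.33 for KD-1 (interval -0.38 to -0.28) and -0.95 for KD-2 (interval -1.01 to -0.89). Here control was highest, KD-1 intermediate and KD-2 lowest. The Snhg3 locus, chromosome 4 from 132348014 to 132353686, overlaps Rcc1 on the same strand, so reads in shared exons are uncertain.

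Snhg12, on chromosome 4 from 132308623 to 132311024, is the host of Snord99 and of H/ACA snoRNAs. It had 8717, 8823 and 5168 reads. Its log2 fold change was -0.21 for KD-1 (interval -0.25 to -0.17) and -0.86 for KD-2 (interval -0.91 to -0.81). Snhg8, the host of Snora24 on chromosome 3 from 123507552 to 123508404, had 4831, 5105 and 3317 reads. The log2 fold change of Snhg8 was -0.15 for KD-1 (interval -0.21 to -0.09) and -0.65 for KD-2 (interval -0.71 to -0.59), the nearest to 0 among the hosts in KD-2.

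The median of the 5 hosts was -0.15 for KD-1 and -0.86 for KD-2. Compared directly, all 5 hosts had KD-1 above KD-2, by between 0.50 for Snhg8 and 0.78 for Gas5, and 4 of them (Gas5, Snhg1, Snhg3 and Snhg12) exceeded 1.5-fold, against 13.9% of all genes higher, 16.1% lower and 30.1% in either direction. The 4 became 2 with DESeq2's size factors and 1 with library totals. For this ratio of KD-1 to KD-2 the median of all genes was also above 0, at 0.12. It was 0.34 among genes with a mean of 10000 reads or more and 0.13 among those with 1000 to 10000. Scaling by library totals moved the median of all genes in KD-2 to 0.14. Under that scaling Snhg1 was at -0.51 and Snhg8 at -0.49 in KD-2, inside 1.5-fold, while Gas5, Snhg3 and Snhg12 stayed beyond it. Among genes with a mean of 10000 reads or more, which include Gas5 and Snhg1, the median in KD-2 was -0.35 and 15.1% were lower by more than 1.5-fold. Among genes with 1000 to 10000 reads, which include Snhg3, Snhg8 and Snhg12, the median was -0.10 and 7.66% were lower. The hosts were lower in the library where fibroblast markers were higher and the pluripotency median was -0.25, with pluripotency markers on both sides of 0. The part of either list in the host values was not tested.

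**Figure D2:**
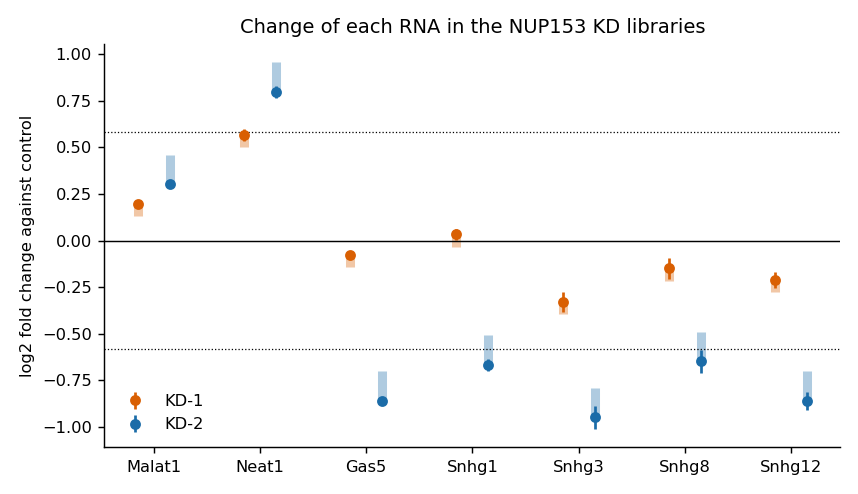
Log2 fold change against control for each RNA in KD-1 and KD-2, with counting intervals (thin bars) and the range over 4 ways of scaling (broad bars); dotted lines mark 1.5-fold. The hosts lie between -0.95 and -0.65 in KD-2 and between -0.33 and 0.03 in KD-1, and Malat1 and Neat1 lie above 0 in both.

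When KD-1 and KD-2 were pooled as a group and tested against control (edgeR quasi-likelihood, TMM factors), Neat1 had a log2 fold change of 0.71 and Snhg3 of -0.60, each with an adjusted p of 1.00 (unadjusted p = 0.0950 for Neat1 and 0.119 for Snhg3). Without KD-1 the values were 0.84 for Neat1 and -0.91 for Snhg3, and without KD-2 they were 0.55 and -0.35, with no test. Gas5, at -0.41 in the group, was at -0.82 without KD-1 and at -0.09 without KD-2. The adjusted p was 1.00 for Malat1, Gas5, Snhg1, Snhg8 and Snhg12 as well. This edgeR test called 0 of 16670 genes (0.00%), and 190 genes had an unadjusted p under 0.05. DESeq2's Wald test called 2 genes, none of them among the 7. The edgeR fit has 1 residual degree of freedom, which comes from the difference between KD-1 and KD-2. Nup153, the gene targeted, was at -1.18 in this fit and was not called either, so a gene not called cannot be taken as unchanged.

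The genes most like each RNA were found by their distance in the log2 fold changes of both knockdowns. Of 12742 genes with a mean of 100 reads or more, 20 lay within 0.1 of Neat1, 70 of Gas5 and 208 of Malat1. The nearest to Neat1 were Fam195a (0.56 and 0.78), Zfp689 (0.53 and 0.79) and Tmem184b (0.53 and 0.76). Nearest to Gas5 were Fastkd1 (-0.07 and -0.85), Ccdc138 (-0.09 and -0.86) and Ccdc18 (-0.10 and -0.86). Nearest to Malat1 were Ptms (0.20 and 0.30), Pex14 (0.20 and 0.30) and Rab12 (0.19 and 0.31). The likeness rests on 3 libraries. Among the hosts the distance ranged from 0.135 between Gas5 and Snhg12 to 0.458 between Snhg1 and Snhg3.

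The snoRNAs carried by the hosts were counted as genes of their own. Of 25 snoRNA genes listed for these hosts, 7 were in the deposited counts and 6 had reads, while Snora24 of Snhg8 was listed at 0 reads in all 3 libraries. Snord47 and Snord99, box C/D snoRNAs of the class that guides methylation of ribose, and Snora16a and Snora61, H/ACA snoRNAs of the class that guides pseudouridine formation, are printed because they lie within the Gas5 and Snhg12 loci and were lower in KD-2 by more than 1.5-fold. Sequences are those of GENCODE M21 (GRCm38), all on the plus strand, and capitals mark boxes C (TGATGA) and D (CTGA) in the Snord genes and boxes H (ANANNA) and ACA in the Snora genes.
Snord47 at chr1:161038082-161038158: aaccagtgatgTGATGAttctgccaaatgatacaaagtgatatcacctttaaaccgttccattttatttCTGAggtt
Snord99 at chr4:132310691-132310764: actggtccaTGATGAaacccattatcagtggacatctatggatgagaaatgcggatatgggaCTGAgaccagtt
Snora16a at chr4:132309464-132309600: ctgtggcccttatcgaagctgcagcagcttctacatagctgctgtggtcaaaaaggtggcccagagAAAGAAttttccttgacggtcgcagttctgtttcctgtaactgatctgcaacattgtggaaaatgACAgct
Snora61 at chr4:132310240-132310369: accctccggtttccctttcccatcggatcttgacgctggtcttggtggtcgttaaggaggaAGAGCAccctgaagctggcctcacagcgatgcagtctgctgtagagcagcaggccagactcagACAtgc

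All 6 snoRNAs with reads were below control in KD-2, and the share of all genes below 0 was not counted. By more than 1.5-fold 4 of the 6 were lower, as 10.2% of all genes were. Snord47 of Gas5 had 1084, 1220 and 716 reads and was at -0.06 and -0.70. With library totals the KD-2 value of Snord47 was -0.55, inside 1.5-fold. Snord99 had 975, 1046 and 485 reads and was at -0.13 and -1.11. Snora16a had 999, 877 and 485 reads, and its values of -0.42 and -1.15 were the lowest among the 6. Snora61 had 3793, 4424 and 2059 reads and was at -0.01 and -0.99. In KD-2 these 4 lay within 0.29 of the log2 fold change of their host, Snord47 above it by 0.16 and the other 3 below it.

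Snord22 and Snora44 were within 1.5-fold of control in both libraries. Snord22 had 6273, 9260 and 5248 reads, with log2 fold changes of 0.33 and -0.36, each above that of Snhg1 by 0.30. Snora44 had 1843, 2469 and 1752 reads, with 0.19 and -0.18, above Snhg12 by 0.40 and 0.68. Snora44 lies in the same host as Snora61 and Snord99. Reads of unspliced host RNA and of finished snoRNA cannot be told apart in these counts. Among all 93 snoRNA genes that passed the minimum, a list made by symbol after the counts were seen, 46 were lower and 2 higher in KD-2 by more than 1.5-fold, with a median of -0.58, against 10.2% and 17.1% of all genes. In KD-1 0 were lower and 1 higher, with a median of 0.00, against 5.62% and 8.63%.

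Of 17 other noncoding snoRNA hosts listed, 13 were counted, and in KD-2 there were 5 lower, 3 higher and 5 within 1.5-fold, with a median of -0.29 that moved to -0.13 with library totals. Of all genes 10.2% were lower and 17.1% higher. Snhg5, the host of the U50 snoRNAs, had 23757, 24516 and 13894 reads and was at -0.18 and -0.88. Snhg4 was at -0.07 and -0.78, Snhg7 at -0.12 and -0.70, Snhg14 at -0.07 and -0.65, and Snhg11 at 0.20 and -0.71. Snhg18 lay on the other side, with 409, 408 and 801 reads and log2 fold changes of -0.23 and 0.86. Snhg20 was at -0.15 and 0.64, and Snhg10 at -0.21 and 0.59. Snhg9 was the single one of these lower in KD-1 by more than 1.5-fold, at -0.80 and 0.29 with 140, 94 and 184 reads, and 0 were higher there, against 5.62% and 8.63% of all genes. Rian, a maternally expressed RNA that hosts box C/D snoRNAs, was at 0.21 and 0.14. Snhg10, Snhg18 and Snhg20 had fewer reads in control (95, 409 and 379) than any of the 5 hosts above.

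Among protein-coding genes that host snoRNAs, 30 of the 31 counted were below 0 in KD-2. The median of all genes there was -0.02, and their share below 0 was not counted. Of the 31 hosts, 6 were lower by more than 1.5-fold and none was higher, with a median of -0.44. Beside this, 10.2% of all genes were lower, and 15.1% with a median of -0.35 among genes of 10000 reads or more. All 31 were within 1.5-fold in KD-1, with a median of -0.03. Taf1d, a subunit of the factor that recruits RNA polymerase I, was at -0.13 and -0.81, the lowest among them in KD-2. Gnl3, a nucleolar GTPase, was at -0.10 and -0.65, and Rpl10, a ribosomal protein, at -0.19 and -0.65. Ncl, which encodes nucleolin, was at 0.05 and -0.50, and Hspa8, a chaperone, at 0.12 and -0.38.

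The proteins that assemble with snoRNAs were all 18 below 0 in KD-2, 3 of them by more than 1.5-fold, with medians of 0.01 and -0.41. Of all genes 10.2% were lower in KD-2, and of genes with 10000 reads or more 15.1%, with a median of -0.35. The count past 1.5-fold is near these shares, and the share of genes below 0 was not counted. Dkc1, the pseudouridine synthase of H/ACA particles, had 46854, 54493 and 31578 reads and was at -0.01 and -0.68. Nop10, another H/ACA core protein, was at -0.13 and -0.66, and Naf1, an assembly factor, at 0.06 and -0.62. Nop58 and Nhp2l1, core proteins of box C/D particles, were at -0.08 and -0.51 and at -0.12 and -0.56.

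Of 21 nonsense-mediated decay factors, which act on spliced Gas5 and several Snhg RNAs, 2 were lower in KD-2 by more than 1.5-fold and none was higher, with medians of 0.00 and -0.27. That count is near the share of all genes lower in KD-2 (10.2%). Magohb, a subunit of the exon junction complex, was at -0.77 and -1.23, and its paralog Magoh was at -0.13 and -0.71. Upf3b was at 0.00 and -0.52 and Rbm8a, a partner of Magoh, at -0.25 and -0.53. The translation release factors Etf1 and Gspt1 were at -0.18 and -0.46 and at -0.20 and -0.42. Upf1, the central helicase of the pathway, had 5278, 6349 and 6050 reads and was at 0.04 and 0.09.

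Of 19 paraspeckle proteins 4 were lower and 1 was higher in KD-2 by more than 1.5-fold (10.2% and 17.1% of all genes), with medians of 0.04 and -0.40. Sfpq, which with Nono binds Neat1 and is needed for paraspeckles, had 18775, 22656 and 12895 reads and was at 0.04 and -0.65. Nono was at 0.00 and -0.40, and Hnrnpk at -0.08 and -0.55. Hnrnph1 was at -0.30 and -0.69. Zc3h6, with 135, 226 and 236 reads, was at 0.51 and 0.70. Of 23 nuclear speckle and SR proteins, the surroundings of Malat1, all were below 0 in KD-2 and 3 were lower by more than 1.5-fold, with medians of -0.07 and -0.42. The count past 1.5-fold is near the 10.2% of all genes and the 15.1% of genes with 10000 reads or more, whose median was -0.35. The share of genes below 0 was not counted. Srsf3 was at -0.16 and -0.71, Srsf7 at -0.07 and -0.64, and Srrm1 at 0.29 and -0.63. Srsf1, which binds Malat1, was at -0.26 and -0.57. With library totals the KD-2 median stayed below 0 in each of these lists, at -0.24 for paraspeckle proteins and -0.12 for decay factors. The counts past 1.5-fold in these lists are given for upper-quartile scaling only. With library totals 820 genes in all were lower in KD-2 by that criterion, against 1700.

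Of 18 other nuclear noncoding RNAs that passed the minimum, 16 were above 0 and 2 below 0 in KD-1. By more than 1.5-fold 1 was higher and 1 lower there, against 8.63% and 5.62% of all genes. In KD-2 there were 8 above and 10 below 0, with 3 higher and 2 lower by more than 1.5-fold, near the shares of all genes (17.1% and 10.2%). The medians were 0.28 and -0.09, and the latter became 0.07 with library totals. The share of all genes on each side of 0 was not counted. Their median in KD-1 was 0.02, and -0.05 with DESeq2's size factors. Rmrp, the RNA of RNase MRP and a product of RNA polymerase III, had 300662, 454056 and 1084311 reads, with log2 fold changes of 0.37 and 1.74. H19, an imprinted RNA, had 64698, 43961 and 127494 reads and was at -0.79 and 0.87, in the directions of the fibroblast markers. Airn, which is antisense to Igf2r, was at 0.17 and 0.96. Mir17hg, the host of a microRNA cluster, was at 0.01 and -0.84.

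Genes next to these RNAs were compared as well. Malat1 and Neat1 are neighbours among the counted genes, 22035 bases apart on the same strand. Frmd8, 4223 bases from Neat1, was at 0.17 and 0.47, above 0 in both libraries as Malat1 and Neat1 were. Zbtb37, whose start overlaps Gas5 on the opposite strand, was at 0.10 and -0.38.

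Slc3a2, which starts 105 bases from Snhg1 in the opposite direction, had 14386, 16269 and 14337 reads and was at -0.05 and -0.11, while Snhg1 was at -0.67 in KD-2. Wdr74, on the other side of Snhg1, was at -0.08 and -0.34. Rcc1, which overlaps Snhg3, was at 0.09 and -0.33, and Phactr4, on its other side, at 0.29 and -0.50. Prss12, 954 bases from Snhg8, was at 0.33 and -0.31, and Ndst3, 17761 bases away with 75, 43 and 136 reads, at -1.02 and 0.75. Trnau1ap, 738 bases from Snhg12, was at -0.04 and -0.29, and Rab42, on its other side, had 9, 11 and 14 reads.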

How the data were processed

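RNA-Seq counts of 3 libraries, 1 per condition, were analysed. The authors trimmed reads with Trim Galore 0.4.1, mapped them with TopHat2 2.1.1 to mm10 (GRCm38), kept reads of high mapping quality and deposited unnormalized read counts for each gene. The methods name featureCounts and the submitters' processing notes name HTSeq as the counter, and the counted strand is not given in the sources used here. Reads assigned to no gene (21.5% to 24.1%) and to several genes (1.45% to 1.65%) were left out.

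Counts were scaled by the upper quartile (edgeR 4.0.16 in R 4.3.3). Log2 fold changes have a pseudocount of 0.5 reads, and genes averaging 10 reads or more were tabulated. For 1 library against 1 no p-value is given; the study took its dispersion from spike-ins, which were not used here. KD-1 and KD-2 together were tested against control by edgeR (quasi-likelihood, TMM factors), with Benjamini-Hochberg adjustment over 16670 genes. DESeq2 1.42.0 was an alternative. GENCODE M21 (GRCm38) gave positions and exon lengths, matched by symbol for 23376 genes, and RefSeq (GRCm38.p6) gave start sites. The test was tried on simulated data, and the outcome is not given here. Plots were drawn with matplotlib 3.10.9.

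Named genes were the 7 RNAs and Nup153, snoRNAs with reads, the nearest counted genes on each side, the largest changes and highest counts in each list (for marker lists not all are printed), and the 3 genes nearest in pattern to Malat1, Neat1 and Gas5. Snhg7, Snhg10, Snhg11, Snhg14, Snhg20, Upf1, Col3a1 and Pou5f1 were named after their values were seen. Some genes that the rule names are not reported here. The RNAs and lists were chosen with earlier results of these data known.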

Additional observations from a re-analysis of the deposited data

Results flagged for a closer look

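Reads assigned to no gene were outside every comparison. They made up 24.1% of the counted and unassigned reads in KD-1, above 21.8% in control, and 21.5% in KD-2.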

How the results depend on the processing

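No paired analysis was possible because each condition has 1 library. The numbers lower among the 7 RNAs in KD-2 (5) fell to 3 with library totals and to 0 with a fold above 2, and the 1 higher became 0 with a fold above 2. The 4 hosts higher in KD-1 than in KD-2 became 2 with DESeq2's size factors, 1 with library totals and 0 with a fold above 2. For Snhg1 in the group test, the values without either knockdown library ranged from -0.63 (KD-1 left out) to 0.017 (KD-2 left out), a change of direction, and that value has no test. Genes higher in KD-1 numbered 1438, then 3211 without a minimum mean, 479 with a mean of 100 reads and 515 with a fold above 2, and genes lower numbered 937, then 2087, 549 and 255. In KD-2 the same settings gave 2847, 4545, 1745 and 903 higher and 1700, 2916, 1107 and 309 lower, with 820 lower by library totals. In KD-1 against KD-2 they gave 2322, 4012, 1389 and 523 higher, with 1229 by library totals, and 2691 lower, then 4068 without a minimum mean and 1316 with a fold above 2. The group test called 0 genes, 4 with upper-quartile scaling, 4 without a minimum mean and 2 with DESeq2's Wald test, none among the 7 RNAs. A minimum mean changes the genes eligible and a larger fold those counted, and the cause of the other shifts was not tested. No RNA of the 7 exceeded 1.5-fold in KD-1 under any alternative run. Counting error is small at these depths, and the absence of replicates limits every value.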
